A study of Mus musculus with 46 samples.

Results

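The libraries described here are those of PrE induction labelled Virma cKO and Virma WT, 4 of the 46 RNA sequencing libraries of a mouse study of N6-methyladenosine (m6A). They were chosen by table and label: 2 libraries of EPSCs with the genotype Virma_cKO and 2 of EPSCs labelled WT, which make up 1 count table of 21812 genes. EPSCs are pluripotent stem cells kept in conditions that broaden their developmental potential, and PrE, the primitive endoderm, is the blastocyst lineage that goes on to form yolk sac endoderm. Both groups were grown in the same PrE induction medium, so no uninduced culture stands in this table. The labels used here do not say how or when the conditional allele was deleted, how many lines or clones were used, how long induction lasted, or why the column names carry the word "input". Nor is it stated that the replicates of a group came from separate cultures, and p-values therefore measure only how far these libraries spread, which may be technical.

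m6A is an abundant internal mark of mRNA, written by a nuclear complex of the METTL3 and METTL14 enzymes with adaptor subunits that include WTAP, VIRMA, ZC3H13, HAKAI and RBM15. VIRMA is the large scaffold that ties the catalytic pair to its adaptors and favours methylation near stop codons and in 3' untranslated regions. Reader proteins of the YTH and IGF2BP families bind the mark, and depending on the reader the transcript is degraded, retained, spliced or kept longer.

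Total counts were 11108921 and 11318305 in cKO and 10590199 and 12250333 in WT, and 13113 genes had enough counts to be tested. Levels are CPM, counts scaled to library size with TMM factors, in replicate 1 and replicate 2 of each group, and changes are log2 of cKO over WT ± SE. "Rose" and "fell" are used only where edgeR's quasi-likelihood test gave an adjusted p under 0.05 with TMM scaling, the default against which the other scalings are set.

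Virma had 67.7 and 54.6 CPM in cKO, against 107 and 109.8 CPM in WT. The groups did not overlap, and Virma fell (-0.82 ± 0.12, adjusted p = 1.12e-06 by edgeR). The libraries labelled cKO kept a mean of 61.1 ± 9.25 CPM, beside 108 ± 2.19 CPM in WT (SD, n = 2 each). Since the deleted exons were not given, counts over the whole gene are a limited check of the label. Without cKO replicate 1 the change was -0.99 and without cKO replicate 2 it was -0.68.

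In all, 1984 genes rose (15.1% of those tested) and 2364 fell (18.0%), but the balance depended on how libraries were scaled to each other. RLE factors gave 1948 rising and 2371 falling, upper quartile factors 2417 and 1985, and library totals 2998 and 1494. Leaving the 100 highest genes out of the totals gave 2788 and 1633, a set of 14 common reference genes 2708 and 1353, and the summed ribosomal protein genes 4898 (37.4%) and 736 (5.61%). The reference genes were not level themselves, since 8 of the 14 fell and 2 rose with TMM. The median gene stood at 0.024 with TMM, 0.20 with library totals and 0.43 with ribosomal scaling, a shift of 0.41 from TMM. The labels name no added RNA of known amount that would set the scale. Counts of list members that rose or fell are to be read beside the TMM shares of 15.1% and 18.0%. The share that fell grew with abundance, to 45.9% in the highest of 5 equal bins of genes by mean CPM.

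Genes called under each of the 7 scalings were therefore counted: 1948 genes rose under all 7 scalings (14.9%) and 736 fell under all 7 (5.61%). A change of 1 log2 unit or more under every scaling was seen in 867 of the rises and 271 of the falls. Nearly every TMM rise held (36 did not), whereas 1628 TMM falls did not hold under all 7. This contrast follows from the scalings chosen. Against TMM, RLE shifted changes by -0.0036, and the rest shifted them upward, from 0.074 (upper quartile) to 0.41 (ribosomal). Holding under all 7 was thus a strict requirement for falls and hardly one for rises. Without cKO replicate 2, 1313 genes rose with TMM and 1276 under all 7 scalings.

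**Figure D1:**
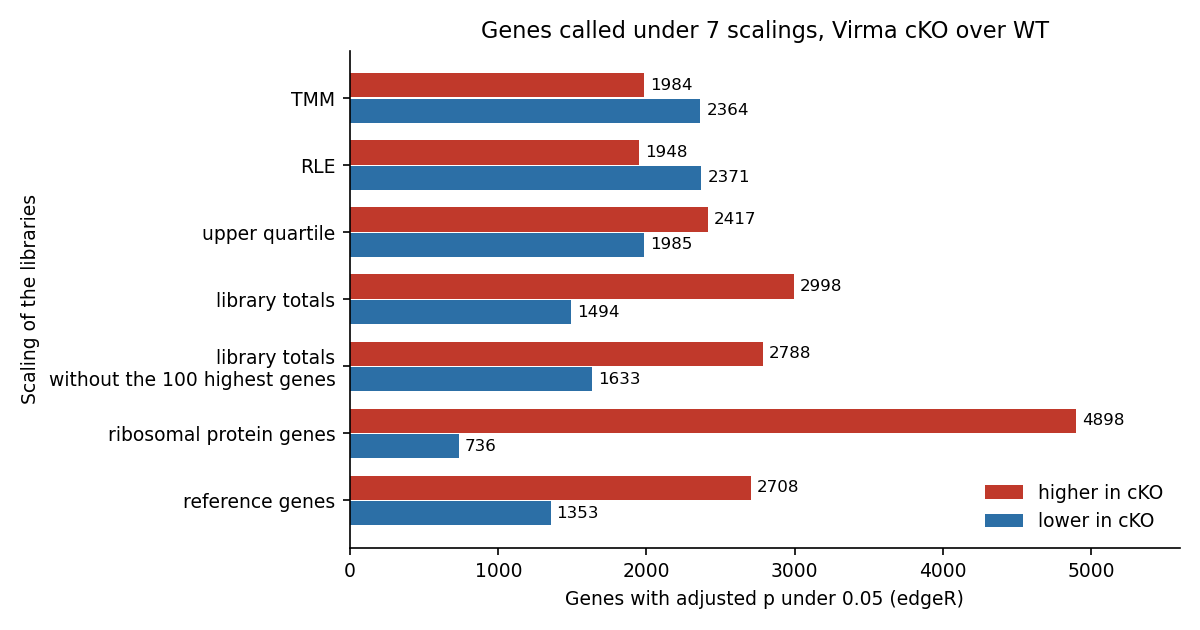
Genes with an adjusted p under 0.05 that were higher (red) or lower (blue) in Virma cKO than in WT, under 7 scalings of the same 4 libraries. Falls outnumber rises with TMM (2364 falls, 1984 rises) and RLE, and rises outnumber falls under the other scalings, most with ribosomal protein genes (4898 rises, 736 falls).

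The PrE identity of these cultures was checked with marker lists. The 7 PrE markers took 0.0145% and 0.0164% of counts in cKO, against 0.134% and 0.129% in WT, and all 7 fell. The 6 epiblast markers took 0.0545% and 0.0523% in cKO, against 0.0842% and 0.0803% in WT, so the cKO libraries were lower in both lists. The 16 fibroblast markers, such as collagen I and III genes, took 0.311% and 0.307% in cKO, against 0.113% and 0.111% in WT, a ratio of 2.76. In bulk RNA, fewer cells of a type and less RNA per cell cannot be told apart, and the labels name no feeder or other added cells. The 8 trophoblast markers were level (0.00421% and 0.00441% in cKO, 0.00468% and 0.00392% in WT). A wider list of 16 trophoblast genes took 0.0351% and 0.0353% in cKO, against 0.0644% and 0.0641% in WT. Of its 13 tested genes 2 fell, Peg10 and Tead4. The 8 smooth muscle markers stood at a ratio of 2.34, and 5 of them rose. Of the 7 neural ectoderm markers (ratio 2.10), 3 were tested and 1 rose (Nes). Of the 8 endothelial and blood markers (ratio 1.61), 3 were tested, Pecam1 rose and Cdh5 fell (-2.64). The last 2 ratios therefore do not speak for their whole lists. The 7 mesoderm markers took 0.00045% and 0.000283% in cKO, against 0.000642% and 0.000563% in WT, and 2 of them (Mesp1 and Msgn1) had no count in any of the 4 libraries.

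**Figure D2:**
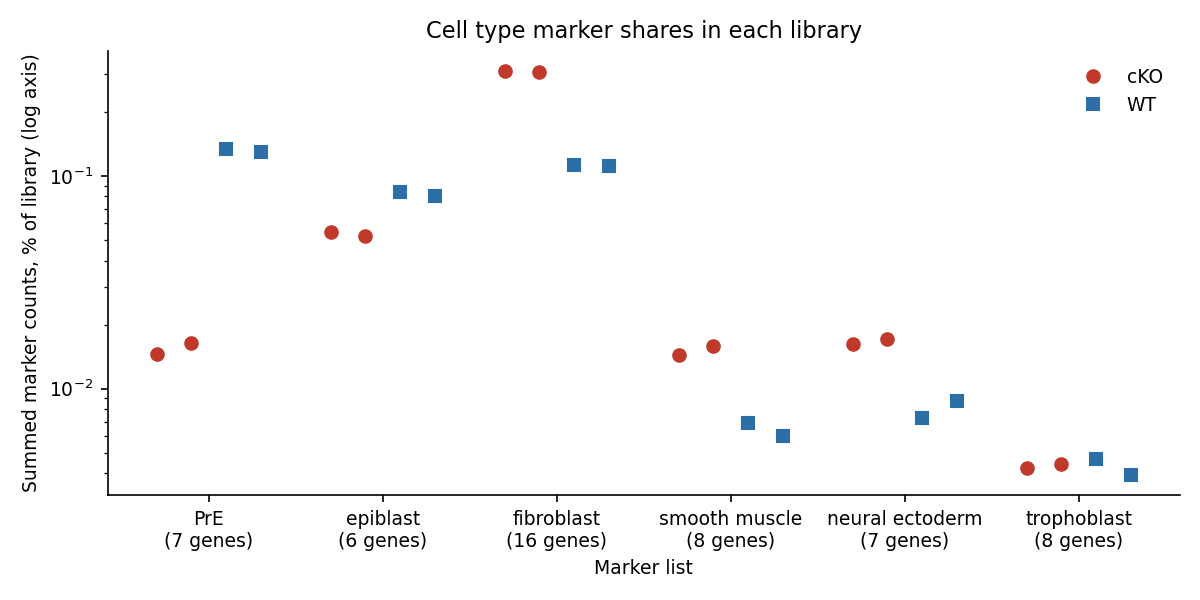
Summed counts of 6 marker lists as a percentage of each library (log axis), cKO libraries as red circles and WT libraries as blue squares. PrE markers are lower in both cKO libraries (0.0145% and 0.0164%) than in both WT libraries, and fibroblast markers are higher (0.311% and 0.307%).

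Of the 8 writer subunits, Virma and Rbm15b fell and Wtap and Zc3h13 rose, while the genes of the catalytic pair did not pass the test. Wtap, the adaptor that anchors the enzymes in nuclear speckles, had 157 and 151 CPM in cKO, against 101 and 104 CPM in WT (0.59 ± 0.094). Zc3h13 changed by 0.20 ± 0.067 and lost its call without either WT replicate or cKO replicate 2 (0.20, 0.20 and 0.096), and Rbm15b (-0.60 ± 0.15) lost it without cKO replicate 2 (-0.45) and with ribosomal scaling (-0.20). Among the 12 readers and erasers, 2 rose and 5 fell, where 15.1% and 18.0% of all genes did. Under all 7 scalings 2 rose and 1 fell. Ythdf2, the reader best known for directing m6A transcripts to decay, had 233 and 231 CPM in cKO, against 95.2 and 116 CPM in WT (1.13 ± 0.092, adjusted p = 7.27e-12 by edgeR). The nuclear reader Ythdc1 also rose (0.67 ± 0.062). Igf2bp3, of the family known for protecting its target transcripts, had 38.8 and 44.5 CPM in cKO, against 91.7 and 107 CPM in WT and fell (-1.26 ± 0.13). All of the genes named here except Zc3h13 and Rbm15b kept their call when any 1 library was left out.

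Outside the PrE lists, the 15 largest falls among genes with a mean of 10 CPM or more were in genes of varied roles. Aqp8, a water and peroxide channel, had 0.754 and 1.1 CPM in cKO, against 38.8 and 32.7 CPM in WT, which is 38.2-fold lower in cKO (-5.26 ± 0.33). Srgn, the core protein of an intracellular proteoglycan, was the most abundant of the 15 named falls, with 8.54 and 6.4 CPM in cKO, against 237 and 214 CPM in WT (-4.91 ± 0.13, adjusted p = 4.39e-25). Klb, the co-receptor that endocrine FGFs need, had 2.18 and 2.78 CPM in cKO, against 60.2 and 59.8 CPM in WT (-4.59 ± 0.23). The cKO libraries lay below the WT libraries in all 15 falls by the rule that chose them.

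Tcf23, a basic helix-loop-helix protein, had 0.754 and 0.337 CPM in cKO, against 21.6 and 18.8 CPM in WT. Nostrin, an adaptor that directs endothelial nitric oxide synthase at membranes, had 3.01 and 2.95 CPM in cKO, against 64.4 and 83.3 CPM in WT. S100g, a calcium carrier of absorptive epithelia, had 1.42 and 1.26 CPM in cKO, against 26.3 and 18.7 CPM in WT. Log2 changes of these 3 genes were -5.18, -4.63 and -4.05.

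Fgf10, a ligand of the epithelial FGF receptor 2, had 2.34 and 4.13 CPM in cKO, against 41.3 and 39.1 CPM in WT. Hkdc1, a hexokinase family member, changed by -3.81 ± 0.29, and Ubash3b, a phosphatase that damps receptor tyrosine kinases, by -3.32 ± 0.34. The germline ATPase Morc1, the export factor relative Nxf7, the phosphodiesterase Gdpd5, Slc35g1, Ankrd33b and Bend5 made up the rest, between -3.86 for Nxf7 and -3.13 for Bend5. All 15 falls, chosen for holding under every scaling, also kept their call when any 1 library was left out.

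At the same minimum mean of 10 CPM, the 15 largest rises were smaller than the 15 largest falls, while some genes of lower mean rose by more. Cdcp1, a transmembrane substrate of SRC kinases, had 23.3 and 26.4 CPM in cKO, against 3.21 and 6.62 CPM in WT, 4.99-fold higher in cKO (2.32 ± 0.30, adjusted p = 1.93e-07). Mcc, a cytoplasmic protein first found mutated in colorectal cancer, was the most abundant, with 69.8 and 64.7 CPM in cKO, against 17.6 and 17 CPM in WT (1.96 ± 0.17). Nexn, an actin-binding protein of the sarcomere Z disc, had 64.1 and 63 CPM in cKO, against 23.1 and 14.3 CPM in WT. The cKO libraries lay above the WT libraries in all 15 by the rule that chose them.

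Guidance and adhesion genes were among these rises. Sema6a, a transmembrane semaphorin, had 17.8 and 28 CPM in cKO, against 5.82 and 3.92 CPM in WT, and Alcam, an immunoglobulin family adhesion molecule, had 22.6 and 30 CPM in cKO, against 7.12 and 6.97 CPM in WT. Fgd5, an exchange factor for CDC42 known from endothelium, changed by 1.86 ± 0.27. The atypical kinase gene Mapk4 had 31.1 and 37 CPM in cKO, against 9.32 and 9.58 CPM in WT and the glycosyltransferase gene Gxylt2, whose product adds xylose to the sugars of Notch repeats, had 43.9 and 40.5 CPM in cKO, against 11.9 and 11.7 CPM in WT. The secreted factors Pdgfc (1.78 ± 0.37) and Tgfb3 (1.77 ± 0.37), had under 20 CPM in every library. Hyal2, Gria3, Fam83g, Trp53rkb and Hmgn3 completed the set, with changes from 1.79 (Hmgn3) to 2.21 (Hyal2).

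**Figure D3:**
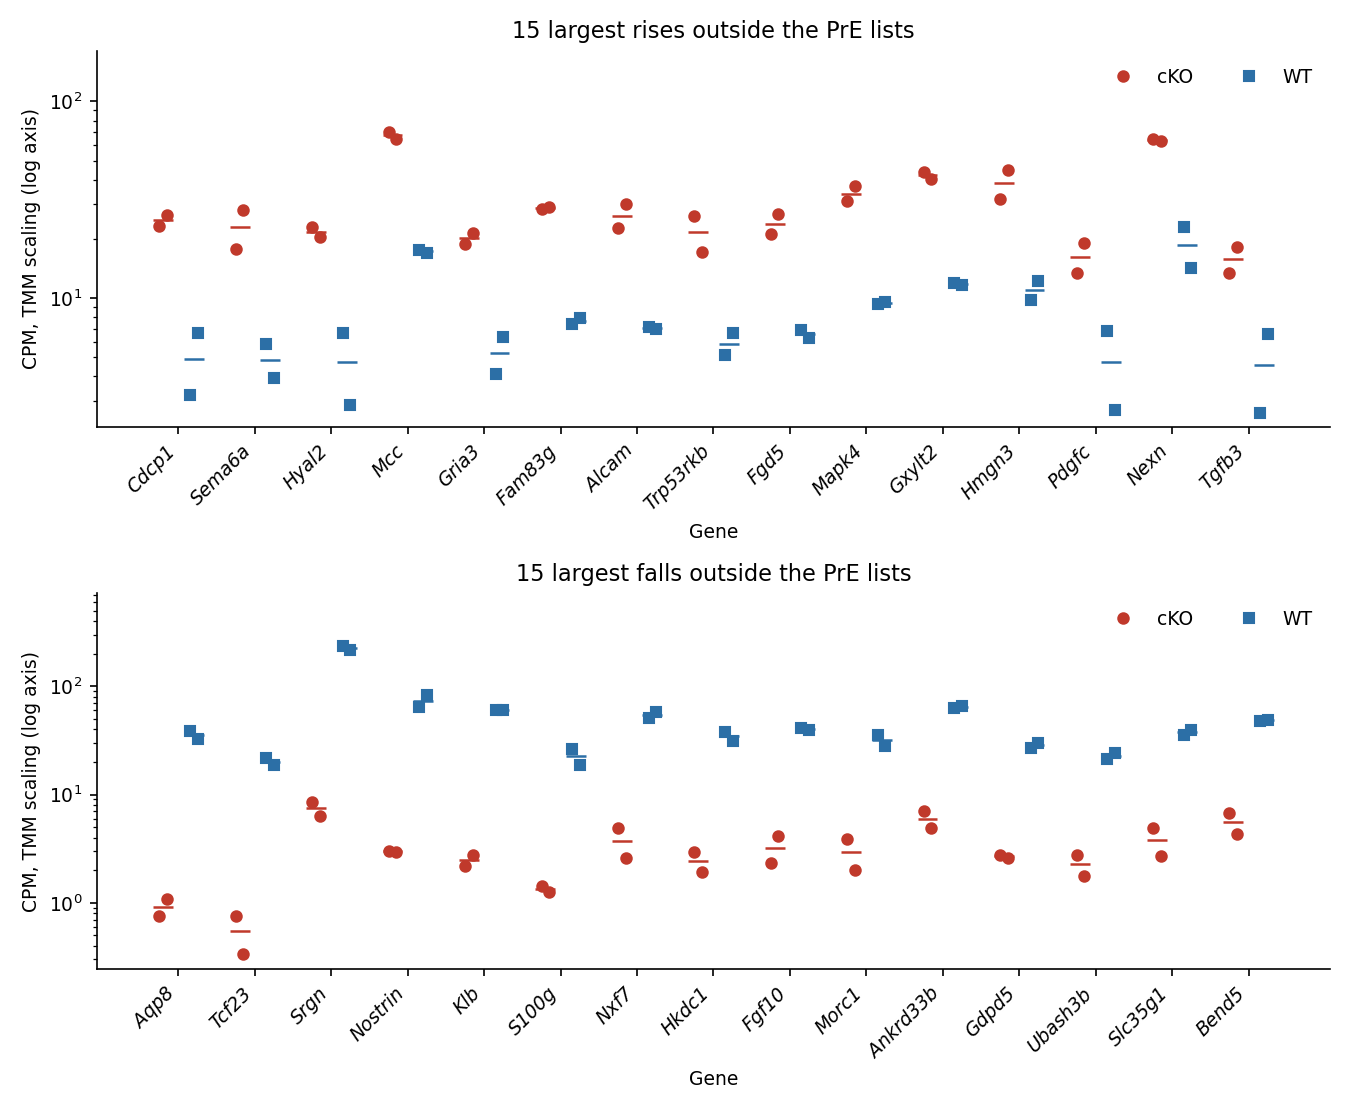
CPM in each library (log axis, TMM scaling) of the 15 largest rises and the 15 largest falls that held under all 7 scalings among genes with a mean of 10 CPM or more, cKO in red on the left and WT in blue on the right of each gene, bars at group means. Falls span up to 38.2-fold (Aqp8) and rises up to 4.99-fold (Cdcp1).

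Genes of protein folding in the endoplasmic reticulum (ER) fell together. Of 18 ER chaperone and unfolded protein response genes, 15 fell, where 18.0% of all genes did, and 0 rose, with a median of -0.66 beside 0.024 for all genes, and 8 fell under all 7 scalings, where 5.61% of all genes did. These chaperones fold the secreted and membrane proteins that enter the ER, and secretory cells such as endoderm make much of them. Hsp90b1, the ER member of the HSP90 family, had 1897 and 2068 CPM in cKO, against 3852 and 3992 CPM in WT (-0.98 ± 0.055, adjusted p = 4.62e-16). Calr, the calcium-binding lectin chaperone, had 1128 and 1225 CPM in cKO, against 2052 and 2149 CPM in WT (-0.84 ± 0.058). Dnajc3, an inhibitor of the stress kinase PERK, had 74.9 and 78.1 CPM in cKO, against 185 and 189 CPM in WT (-1.29 ± 0.095), and the disulfide isomerase Pdia6 had 321 and 319.7 CPM in cKO, against 589 and 570.0 CPM in WT (-0.85 ± 0.066). These 4 genes were taken by lowest adjusted p in the list, so the gap between their groups is no separate result. With ribosomal scaling 8 of the 18 list genes fell and 2 rose, where 5.61% and 37.4% of all genes did. The 4 named genes were among those falls, at -0.88 for Dnajc3 as the largest and -0.43 for Calr as the smallest.

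The promoters of these 4 genes are shown because they share a known sequence. The ER stress response element, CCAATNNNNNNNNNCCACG, is the site through which ATF6 with NF-Y acts on ER chaperone genes, and it was searched on both strands from 250 bases before to 50 bases after each RefSeq gene start (GRCm38.p6). It was found in 7 of 16 list genes with a window, beside 0.137% of all 27025 genes with a window and 0.192% of tested genes. The element is known from genes of this class, so the higher share in the list is no new result. The matches stand in capitals with 12 bases on either side, read along the strand of the gene, where a match beginning with CGTGG lies on the other strand.
Hsp90b1 first match, chr10:86705626-86705668, minus strand: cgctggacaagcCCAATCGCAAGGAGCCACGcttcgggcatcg
Hsp90b1 second match, chr10:86705521-86705563, minus strand: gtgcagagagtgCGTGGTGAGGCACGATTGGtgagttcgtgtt
Calr, chr8:84847063-84847105, minus strand: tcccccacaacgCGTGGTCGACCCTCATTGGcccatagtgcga
Dnajc3, chr14:118937815-118937857, plus strand: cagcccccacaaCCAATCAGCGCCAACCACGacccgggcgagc
Pdia6, chr12:17266479-17266521, plus strand: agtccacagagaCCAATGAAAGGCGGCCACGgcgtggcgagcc
All 5 matches lie upstream of the start, the farthest beginning 212 bases and the nearest ending 80 bases before it. The 4 genes shown were taken by adjusted p. Among the other list genes with a match, Creld2 changed by -1.14, Hspa5 by -0.50 and Canx by -0.17. List genes with a window and no match ranged from -1.26 (Sdf2l1) to -0.025 (Sel1l). Of 13 tested genes outside the list that hold the element, 3 fell and 2 rose, near the shares of all genes (18.0% and 15.1%), with a median of -0.20 beside 0.024 for all genes. A match is a description of letters and not a measured binding site.

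Lipid synthesis genes were lower as well. Of 22 cholesterol synthesis genes, 15 fell and none rose (median -0.60), and of 15 genes of fatty acid synthesis and storage, 9 fell and 1 rose (median -0.50). Under all 7 scalings 5 and 6 of them fell. Cyp51, the sterol 14-demethylase, had 82.2 and 95.6 CPM in cKO, against 214 and 202 CPM in WT (-1.23 ± 0.094). Lss, which closes the sterol rings, changed by -0.98 ± 0.16. The desaturase gene Scd1 had 107 and 112 CPM in cKO, against 236 and 225 CPM in WT, and its paralog Scd2, whose reads may be shared in part, had 269 and 295 CPM in cKO, against 531 and 537 CPM in WT. Acly, which supplies cytosolic acetyl-CoA, fell by less (-0.75 ± 0.074).

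Glycolytic genes fell at several steps. Of 18 genes, 12 fell and 1 rose (median -0.52), 6 of them falling under all 7 scalings. The glucose transporter gene Slc2a3 had 397 and 448 CPM in cKO, against 1005 and 1074 CPM in WT (-1.30 ± 0.066, adjusted p = 3.53e-17). The 2 phosphofructokinase genes Pfkp (-1.39 ± 0.15) and Pfkl (-1.10 ± 0.10) and the lactate dehydrogenase gene Ldha (-1.29 ± 0.084) fell alongside. Idh1, the cytosolic isocitrate dehydrogenase, had 70.5 and 63.1 CPM in cKO, against 146 and 139 CPM in WT. Of 78 nuclear genes of oxidative phosphorylation, 31 fell (median -0.29), where 18.0% of all genes did. In the highest of 5 equal bins of genes by mean CPM, 45.9% of genes fell. Under all 7 scalings 2 of the 78 fell, Atp5a1 among them (-0.71 ± 0.061), where 5.61% of all genes did.

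Several genes of endocytosis fell. Of 19 endocytosis genes, 11 fell and 1 rose, where 18.0% and 15.1% of all genes did. In the highest of 5 equal bins of genes by mean CPM, which holds Dab2, Cltc, Clta and Ap2m1, 45.9% of genes fell. Under all 7 scalings 5 of the 19 fell, where 5.61% of all genes did. The PrE marker share was lower in the same 2 libraries, and its part in the changes of ER, lipid and endocytosis genes was not tested. Dab2, the adaptor of megalin and cubilin and itself a PrE marker, had 32.6 and 39.7 CPM in cKO, against 635 and 593 CPM in WT (-4.09 ± 0.09). The clathrin heavy chain gene Cltc had 556 and 534 CPM in cKO, against 975 and 959.9 CPM in WT, the light chain gene Clta 282 and 269.8 CPM in cKO, against 495 and 531 CPM in WT, and the adaptor subunit Ap2m1 changed by -0.71 ± 0.076. Lysosomal genes split: legumain (Lgmn) had 24 and 18.4 CPM in cKO, against 108 and 102 CPM in WT, cathepsin C (Ctsc) 19.2 and 16 CPM in cKO, against 77.1 and 67.2 CPM in WT and cathepsin L (Ctsl) 156 and 159 CPM in cKO, against 331 and 321 CPM in WT, all lower in cKO, while progranulin (Grn) rose (0.61 ± 0.13). In that list 7 of 19 fell and 5 rose, where 18.0% and 15.1% of all genes did.

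FGF acts through ERK in PrE choice in the blastocyst, and genes of FGF ligands and receptors changed in both directions. Of 13 ligand, receptor and adaptor genes, 7 fell and 3 rose (median -1.13), with Klb (-4.59) and Fgf10 (-3.63) falling the most of those named. Fgfr2, the receptor linked to PrE, had 17.3 and 25.9 CPM in cKO, against 70.1 and 56.8 CPM in WT (-1.55 ± 0.18), and Fgfr1, the receptor of epiblast and PrE alike, had 106 and 94.4 CPM in cKO, against 59.4 and 56.1 CPM in WT (0.80 ± 0.12). The 2 receptors moved in opposite directions under all 7 scalings. ERK feedback genes did not move as a block, with 6 of 15 rising and 3 falling. The FGF inhibitors Spry4 (-1.29 ± 0.14) and Spry2 (-1.05 ± 0.13) and the ERK phosphatase gene Dusp4 (-0.84 ± 0.13) fell, while Il17rd, another inhibitor of FGF receptors, had 45.4 and 44.7 CPM in cKO, against 27.2 and 18.6 CPM in WT (0.98 ± 0.19).

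PDGF receptors also diverged. Pdgfra, the PrE receptor, had 82.1 and 92.2 CPM in cKO, against 486 and 467 CPM in WT (-2.45 ± 0.08), and Pdgfrb, the mesenchymal receptor, had 23.8 and 21.9 CPM in cKO, against 7.62 and 9.06 CPM in WT (1.45 ± 0.26). Kit, a related receptor, fell (-1.24 ± 0.27). Pdgfrb is also 1 of the 16 fibroblast markers.

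In the Hedgehog list, 5 of 8 rose and 1 fell, where 15.1% and 18.0% of all genes did. The transcription factors Gli3 (59 and 65.5 CPM in cKO, against 28.8 and 35.7 CPM in WT) and Gli2 (21.9 and 23.1 CPM in cKO, against 9.63 and 6.36 CPM in WT) were higher. Ptch1, the receptor and a usual transcriptional target, had 21 and 21 CPM in cKO, against 38.6 and 38.6 CPM in WT and fell (-0.88 ± 0.18). Gli1, the other usual target, rose (2.73 ± 0.58), but its cKO libraries stood at 11.2 and 4.38 CPM and without cKO replicate 1 the change was 1.89 with an adjusted p of 0.170 by edgeR. The fibroblast and smooth muscle marker shares were 2.76 and 2.34 times as high in cKO as in WT, and the part of such cells in the Gli2 and Gli3 values was not tested.

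In the Notch list, 5 of 13 rose and 1 fell, where 15.1% and 18.0% of all genes did. The receptor gene Notch2 had 77 and 83 CPM in cKO, against 45.9 and 34.4 CPM in WT (1.00 ± 0.14). Notch1 had 37.1 and 40.1 CPM in cKO, against 21 and 16.6 CPM in WT (1.04 ± 0.19).

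Among TGF-beta family genes, Inhba, which encodes the activin A subunit, had 153 and 188 CPM in cKO, against 71.9 and 74.4 CPM in WT (1.22 ± 0.10). The Nodal co-receptor gene Tdgf1 (-1.86 ± 0.11) and the Nodal antagonist gene Lefty2 (-1.84 ± 0.16) fell. In the Nodal and activin list as a whole, 5 of 15 fell and 1 rose, where 18.0% and 15.1% of all genes did. Of BMP genes, Bmp4 fell (-1.11 ± 0.21) and Bmp7 rose (2.90 ± 0.59), with at most 1.48 CPM in either WT library. The BMP antagonist Grem1 had 31.7 and 33.5 CPM in cKO, against 8.12 and 12 CPM in WT, and the modulator Bmper had 6.45 and 4.89 CPM in cKO, against 26.3 and 18.2 CPM in WT.

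Wnt genes moved in both directions. The inhibitor Dkk1, a gene of anterior visceral endoderm, had 2.09 and 1.35 CPM in cKO, against 28 and 32.4 CPM in WT. The Wnt targets Cdx1 (1.49 ± 0.23), Tcf7 (0.80 ± 0.16) and Sp5 (3.38 ± 0.66) rose, and Sp5 had at most 1.30 CPM in either WT library and a change of 5.35 without WT replicate 1. In this list 4 of 14 rose and 2 fell, where 15.1% and 18.0% of all genes did. The retinoic acid receptor gene Rara (1.12 ± 0.19) and the retinoid carrier gene Crabp1 (0.77 ± 0.18) rose, and Cyp26a1, the enzyme that breaks down retinoic acid, had 1.84 and 0.253 CPM in cKO, against 6.42 and 6.36 CPM in WT and fell (-2.59 ± 0.67). The call of Cyp26a1 was lost without cKO replicate 2 (-1.79, adjusted p = 0.0539 by edgeR) and its change was -4.60 without cKO replicate 1. In the retinoic acid list 5 of 14 rose and 1 fell, where 15.1% and 18.0% of all genes did.

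Mesenchymal, contractile and inflammatory genes rose together with the fibroblast markers. Of 15 fibroblast markers tested, 14 rose and none fell, all 14 under every scaling (median 1.27). Col3a1 had 724 and 716 CPM in cKO, against 266 and 276 CPM in WT (1.41 ± 0.066) and Col1a1 had 619 and 581 CPM in cKO, against 259 and 239 CPM in WT (1.27 ± 0.069). Col1a2 (1.33 ± 0.074) and Col5a1 (1.30 ± 0.081) moved by nearly the same amount. The changes of all 15 lay between 0.97 and 1.52.

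Of 12 contractile genes, 8 rose and none fell (median 1.10). Cald1, which encodes the actin regulator caldesmon, had 897 and 1028 CPM in cKO, against 420.2 and 439 CPM in WT (1.16 ± 0.067). The tropomyosin genes Tpm2 (1.09 ± 0.15) and Tpm1 (0.45 ± 0.072) rose by unequal amounts, and the smooth muscle actin Acta2 had 18 and 17.1 CPM in cKO, against 7.12 and 6.1 CPM in WT. Smooth muscle markers took 0.0143% and 0.0159% of counts in cKO, against 0.00689% and 0.00602% in WT.

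Of 13 genes of the epithelial to mesenchymal transition, 7 rose and none fell. Zeb2, a repressor of E-cadherin, had 51.2 and 49.2 CPM in cKO, against 17.2 and 14.6 CPM in WT (1.66 ± 0.18), and fibronectin (Fn1) had 1478 and 1521 CPM in cKO, against 1029.8 and 1038 CPM in WT (0.54 ± 0.057). Prrx1, which is also a fibroblast marker, changed by 1.01 ± 0.12. Tgfb2 (1.74 ± 0.34) did not pass once cKO replicate 1 was left out (1.17, with an adjusted p of 0.0652 by edgeR). Some epithelial genes rose too: the keratin Krt18 had 47.3 and 60.1 CPM in cKO, against 19.9 and 18.8 CPM in WT (1.47 ± 0.18), Krt8 changed by 0.71 ± 0.16, P-cadherin (Cdh3) had 22.3 and 22.8 CPM in cKO, against 5.61 and 8.1 CPM in WT, and E-cadherin (Cdh1) had 364 and 343 CPM in cKO, against 272 and 259.8 CPM in WT (0.41 ± 0.072). Of 19 junction and keratin genes, 6 rose and 3 fell, and of 21 integrin genes, 5 rose and 1 fell, where 15.1% and 18.0% of all genes did, Itga1 (1.21 ± 0.21) and Itgb5 (1.09 ± 0.19) among the rises.

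Chemokine and NF-kB genes rose in nearly the whole list, 12 of 15 with none falling, where 15.1% of all genes rose (median 0.96), 11 of them under every scaling. The monocyte attractant Ccl2 had 245 and 212 CPM in cKO, against 97.7 and 75.9 CPM in WT (1.40 ± 0.10, adjusted p = 4.79e-13), and the neutrophil attractant Cxcl1 had 81.8 and 71.4 CPM in cKO, against 36.7 and 35.8 CPM in WT (1.08 ± 0.14). The macrophage growth factor Csf1 had 35.9 and 33.3 CPM in cKO, against 13.7 and 10.5 CPM in WT. Nfkbia, the inhibitor that NF-kB itself induces, had 42.4 and 35.6 CPM in cKO, against 20.3 and 12.5 CPM in WT (1.25 ± 0.21). Fibroblasts are known to express Ccl2, Cxcl1 and Csf1, and the fibroblast marker share was 2.76 times as high in cKO as in WT. The part of those cells in the contractile, mesenchymal and chemokine rises was not tested.

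Among stress pathways, most p53 targets rose. Of 22 p53 targets, 14 rose and 1 fell, where 15.1% and 18.0% of all genes did. Under all 7 scalings 14 rose, where 14.9% of all genes did. The nuclease Aen had 90.2 and 85.2 CPM in cKO, against 39.5 and 43.9 CPM in WT (1.07 ± 0.13), the cell cycle inhibitor Cdkn1a had 58.5 and 51.9 CPM in cKO, against 23.9 and 23.1 CPM in WT (1.23 ± 0.17), and Mdm2, the ligase that degrades p53, had 279.9 and 279 CPM in cKO, against 178 and 185 CPM in WT (0.62 ± 0.076). Trp53inp1 also rose (0.81 ± 0.12).

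The integrated stress response acts through the factor ATF4. Of 19 genes of this response, 9 rose and 1 fell, where 15.1% and 18.0% of all genes did. Atf4 itself had 240.1 and 236 CPM in cKO, against 174 and 165 CPM in WT (0.49 ± 0.079). Trib3, a pseudokinase induced by ATF4, had 41.1 and 44.7 CPM in cKO, against 15.6 and 13.7 CPM in WT (1.55 ± 0.19), and Cebpb changed by 1.15 ± 0.21. Slc7a11, the cystine transporter counted in both this list and the antioxidant list, had 29.6 and 19.3 CPM in cKO, against 7.42 and 8.19 CPM in WT (1.64 ± 0.27). Of the antioxidant genes, Txnrd1 (0.53 ± 0.064) and Gclm (0.75 ± 0.14) rose with 5 of 15.

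Cytosolic heat shock genes were mixed, 6 of 13 falling and 3 rising, where 18.0% and 15.1% of all genes did. Hspb1, a small heat shock protein, had 9.8 and 9.35 CPM in cKO, against 51.2 and 49.5 CPM in WT (-2.39 ± 0.20), and Hsph1 changed by -0.70 ± 0.059. Of the cell death genes, the initiator caspase Casp8 had 16.2 and 16.3 CPM in cKO, against 4.81 and 2.44 CPM in WT (2.17 ± 0.36) and the caspase inhibitor Xiap had 53.1 and 46.2 CPM in cKO, against 86.5 and 105 CPM in WT (-0.95 ± 0.13). Bcl2l1, which protects mitochondria, rose (0.63 ± 0.14). In that list 5 of 24 rose and 3 fell, near the shares of all genes (15.1% and 18.0%). Immediate early genes did not share a direction either: Ier2 (-1.05 ± 0.11) and Klf6 (-0.82 ± 0.091) fell and Nr4a1 (1.37 ± 0.23) rose.

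Proliferation and protein synthesis genes fell with TMM but mostly not under every scaling. Of 28 replication genes, 18 fell with TMM and 3 under all 7 scalings, and of 20 mitosis genes 14 and 2. Their medians were -0.40 and -0.39 with TMM and 0.008 and 0.014 with ribosomal scaling. The proliferation marker Mki67 was -0.35 with TMM and 0.056 with ribosomal scaling, and Top2a, the topoisomerase of dividing cells, was -0.38 and 0.026. Their direction is therefore not settled by these data.

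Some cell cycle genes fell under every scaling. The mitotic activator Cdc20 had 31.5 and 29.3 CPM in cKO, against 60.1 and 62.4 CPM in WT (-1.01 ± 0.15), cyclin B1 (Ccnb1) had 125 and 113 CPM in cKO, against 230.5 and 205 CPM in WT (-0.87 ± 0.089), and cyclin A2 (Ccna2) and its kinase Cdk2 changed by -0.89 ± 0.11 and -0.91 ± 0.12. Rrm2, a subunit of ribonucleotide reductase, and Mcm4, of the replicative helicase, changed by -0.66 ± 0.074 and -0.65 ± 0.079. Cyclin D2 (Ccnd2) went the other way, with 123 and 134 CPM in cKO, against 58.3 and 66.3 CPM in WT (1.04 ± 0.11). Mycn, the Myc family member of stem cells, fell (-1.09 ± 0.15), and so did the inhibitor Cdkn1b (-1.01 ± 0.22). The histone gene H2ac22 had 105 and 94.6 CPM in cKO, against 229 and 194 CPM in WT, though near-identical histone copies may share reads.

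Ribosomal protein genes took 3.52% and 3.42% of counts in cKO, against 4.12% and 4.03% in WT. With TMM, 69 of 76 fell and none rose (median -0.42), and scaling to these genes sets their sum equal by construction. Rpl7, of the large subunit, was among them (-0.75 ± 0.068). In a list of 19 other genes linked to translation, 18 fell. Fau, which itself encodes a ribosomal protein, had 370.1 and 374 CPM in cKO, against 656 and 649 CPM in WT. Naca had 648 and 655 CPM in cKO, against 1104 and 1040.2 CPM in WT. Npm1, a nucleolar chaperone of ribosome assembly, had 3451 and 3391 CPM in cKO, against 5728 and 5635 CPM in WT (-0.73 ± 0.051). Proteasome genes fell in 24 of 37 cases, of which 1 held under all 7 scalings (Psmd8, -0.78 ± 0.12), and Psmd7 was 1 of the 2 that rose (0.45 ± 0.063).

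**Figure D4:**
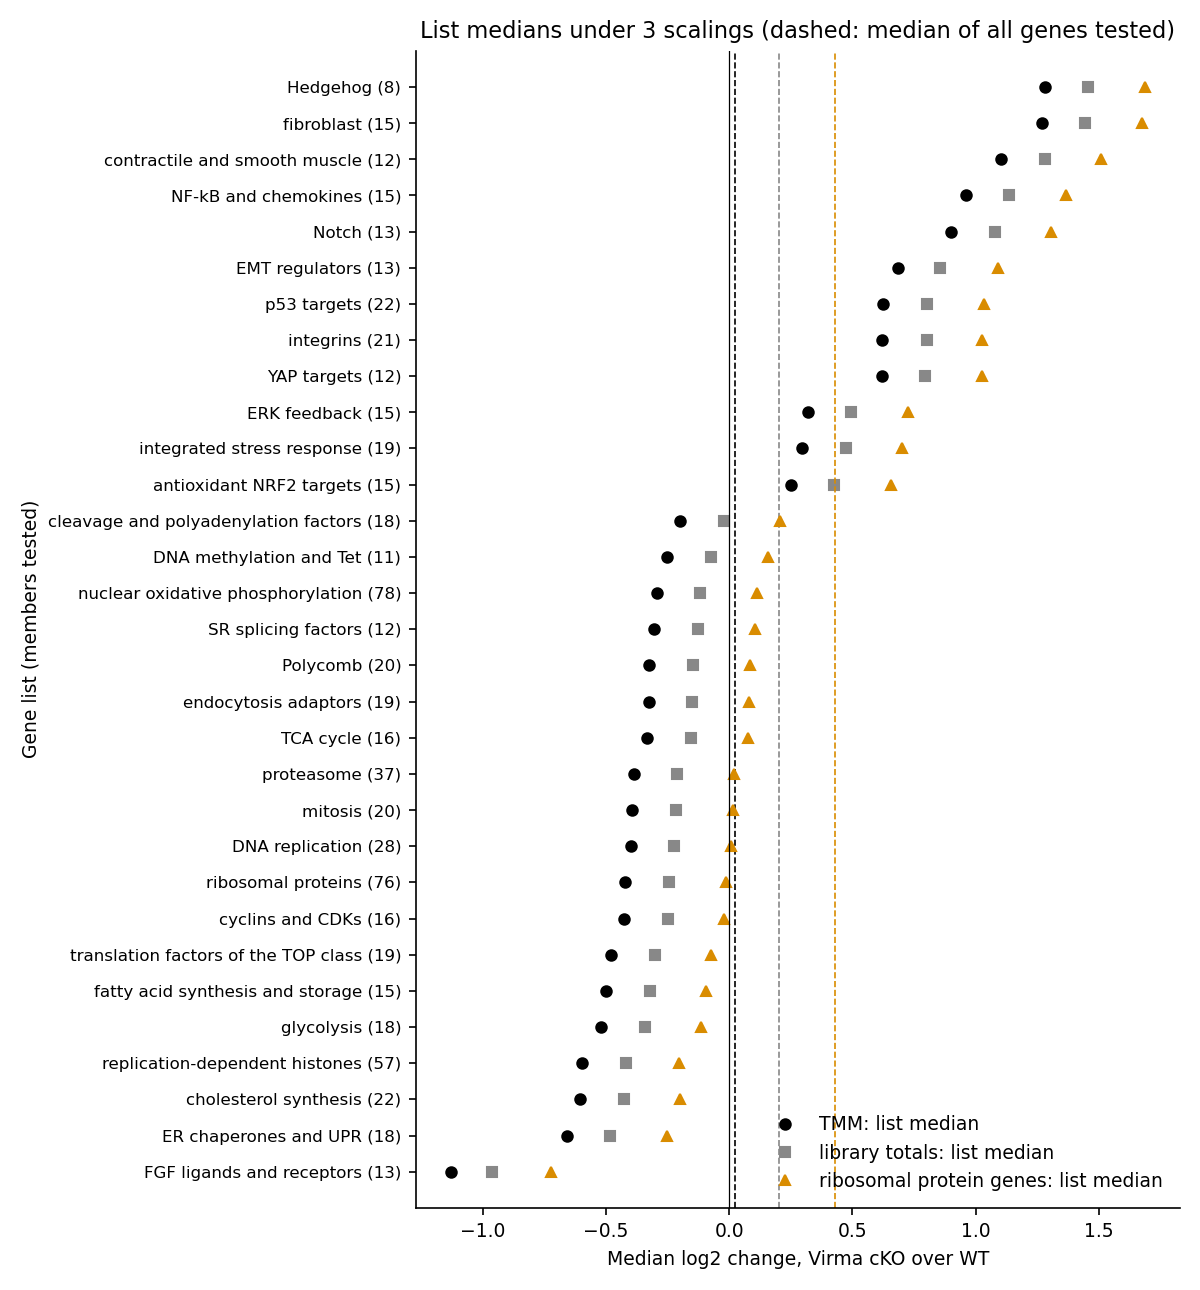
Median log2 change (cKO over WT) of the tested members of 31 gene lists under TMM, library totals and ribosomal scaling, with dashed lines at the median of all genes tested under each scaling. Scaling moves lists and the median gene together: ER chaperones stay below 0 (-0.66 with TMM, -0.25 with ribosomal scaling), and replication and mitosis lists reach 0.

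Scaling shifts every gene of a library alike, so lists were also set against the median gene with TMM. The ER chaperone list lay at -0.68 relative to the median gene, cholesterol synthesis at -0.63, glycolysis at -0.54 and ribosomal proteins at -0.45. On the other side lay the chemokine list at 0.94, p53 targets at 0.60 and the integrated stress response at 0.27.

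Several DNA methylation and Polycomb genes fell. In the DNA methylation list 6 of 11 fell and 1 rose. Dnmt3l, a cofactor of de novo methylation, had 16 and 19.6 CPM in cKO, against 78.9 and 86.8 CPM in WT (-2.22 ± 0.16), Tet2, a 5-methylcytosine oxidase, had 96.2 and 103 CPM in cKO, against 269 and 261 CPM in WT (-1.41 ± 0.085), and the methyltransferase gene Dnmt3b had 164 and 154 CPM in cKO, against 295 and 299 CPM in WT (-0.90 ± 0.078). Of 20 Polycomb genes, 8 fell and 2 rose with TMM, and 3 fell and 4 rose with ribosomal scaling. Under every scaling 3 fell and 2 rose, the methyltransferase Ezh2 (-0.71 ± 0.075) and its partner Eed (-0.62 ± 0.073) among the falls. Trim28, the corepressor of zinc finger repressors, fell (-0.62 ± 0.07), as did Tasor of the HUSH silencing complex (-0.79 ± 0.094).

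Imprinted genes changed in both directions. Peg10, a retrotransposon-derived gene needed in placenta, had 224 and 219 CPM in cKO, against 562 and 566 CPM in WT (-1.35 ± 0.068, adjusted p = 2.4e-17), and the imprinted growth inhibitors Igf2r (0.58 ± 0.075) and Grb10 (0.93 ± 0.15) rose. Of 17 imprinted genes, 6 rose and 5 fell, where 15.1% and 18.0% of all genes did. Of 15 germline genes, 4 fell and 1 rose, where 18.0% and 15.1% of all genes did, and Rhox5, a reproductive homeobox gene, had 464 and 502 CPM in cKO, against 1361 and 1380.4 CPM in WT (-1.50 ± 0.062). Runx1, a regulator of blood formation, had 13.7 and 12.4 CPM in cKO, against 82.7 and 72.6 CPM in WT (-2.57 ± 0.17).

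Among RNA processing genes, the polyadenylation scaffold Sympk had 83.5 and 101 CPM in cKO, against 167 and 177 CPM in WT (-0.90 ± 0.10) and Cstf2t changed by -0.77 ± 0.12. Of 18 cleavage and polyadenylation genes, 7 fell and 4 rose with TMM, where 18.0% and 15.1% of all genes did, and 2 fell and 7 rose with ribosomal scaling, where 5.61% and 37.4% did. Of 34 mRNA decay factors, 7 fell and 4 rose with TMM, and 2 fell and 19 rose with ribosomal scaling, and the list median was -0.059 with TMM and 0.35 with ribosomal scaling. The balance of both lists therefore depended on the scaling, and 2 falls and 4 rises of each held under all 7. Zfp36l1, which binds AU-rich elements, changed by -1.15 ± 0.12 and the decapping enzyme gene Dcp2 by -0.68 ± 0.10.

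Change followed abundance. Genes were put into 5 equal bins by mean CPM, and from the lowest to the highest bin the median log2 change was 0.41, 0.24, 0.062, -0.054 and -0.18 with TMM. In the highest bin 45.9% of genes fell and 15.8% rose, and in the lowest bin 1.83% fell and 5.95% rose, where fewer counts also leave fewer calls. With ribosomal scaling every bin had a median above 0, declining to 0.23 in the highest bin after 0.81 in the lowest. A change of scaling shifts all genes by nearly the same amount, so the same order of bins under both scalings followed by construction.

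**Figure D5:**
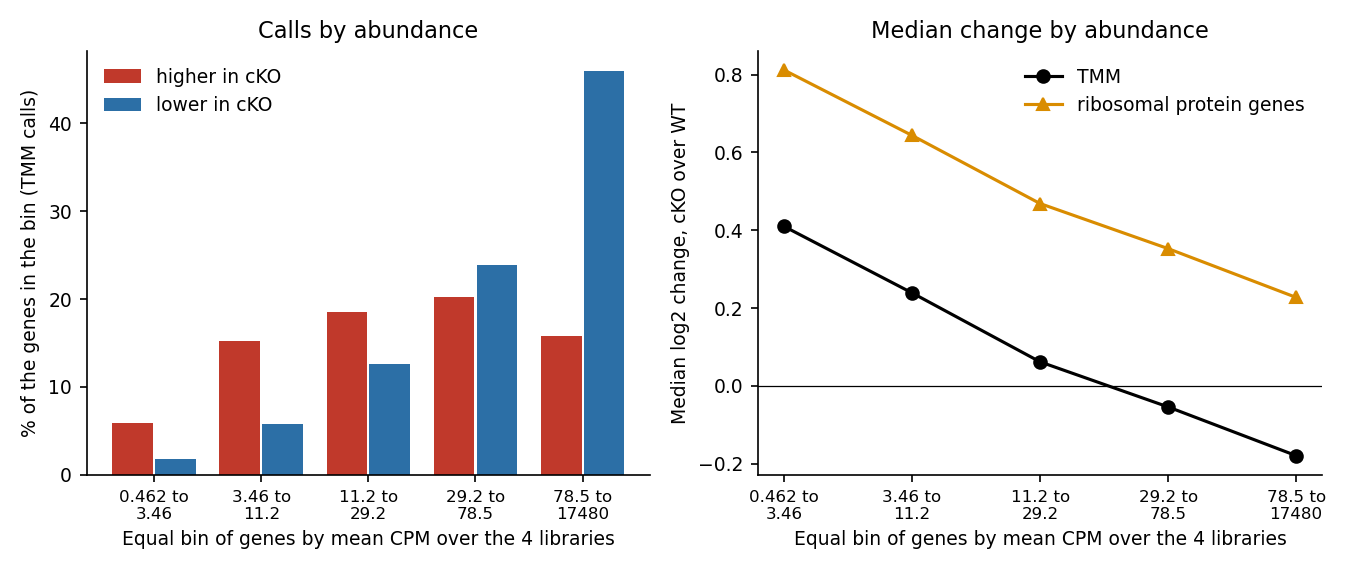
Left, percentage of genes in each of 5 equal bins of mean CPM that were called higher (red) or lower (blue) in cKO with TMM. Right, median log2 change of each bin with TMM (black) and with ribosomal scaling (orange); calls lower in cKO grow to 45.9% in the highest bin, and both median lines decline with abundance.

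Transcript structure showed weaker gradients, described with GENCODE M21 transcripts (GRCm38) for 97.6% of tested genes in 5 equal bins. Genes in the bin with the fewest exon junctions per kilobase had a median log2 change of 0.15 and those in the bin with the most -0.091. The bin of shortest transcripts had a median of -0.094 and that of the longest 0.14. For GGACT, a common form of the m6A consensus, the medians were -0.050 in the bin with the fewest per kilobase and 0.064 in the bin with the most, after 0.078 in the bin before it. By GC content, the medians were -0.049 in the lowest bin and 0.17 in the highest. Median abundance differed between these bins too (10.5 CPM for the fewest junctions and 24.4 CPM for the most), and its part in these gradients was not tested.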

How the data were processed

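The count table the authors deposited holds raw whole-number counts for each gene, with totals that differ between libraries. Per the submitters' processing notes, the tools were STAR 2.7.11b, Subread, DESeq2, Trim Galore and FastQC 0.12.1, with the mm39 build. TRIzol extraction and 2 kits for total RNA libraries are named, per the labels' protocols. Which kit made which library, the annotation and the strand setting are not given in the sources used here, so reads of overlapping or antisense genes may be mixed, and near-identical copies are uncertain.

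The 4 libraries were fitted with edgeR 4.0.16 in R 4.3.3 (quasi-likelihood test, TMM factors, filterByExpr, prior count 0.125, Benjamini-Hochberg adjustment over 13113 genes), without a replicate block. Shared replicate numbers did not pair the libraries (correlation of deviations -0.0083). Alternatives were 6 other scalings, DESeq2 1.42.0, other filters, a replicate block and leaving out each library. Replicates were not repeats of 1 library (chi-square of counts over its degrees of freedom, 6.72 in cKO and 6.07 in WT), and 3 counts in a library equal 0.251 to 0.301 CPM. Tested on simulated data drawn from these libraries (12700 genes), the fit recovered 34%, 68%, 74% and 94% of genes changed by 0.5, 1, 2 and 4 log2 units, and 0.735% of its calls were false. Only 50 genes of each size were changed, equally up and down, so the simulation does not carry the dependence on scaling seen here. Its 0.735% is not an error rate for the real calls.

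The libraries and the gene lists were chosen with earlier results of these data known, so lists are given as counts and medians with no set test. Named genes are Virma, the 15 largest rises and 15 largest falls that held under all 7 scalings (mean of 10 CPM or more, no overlap of the groups, no predicted symbol, in no PrE list), and, by adjusted p, up to 4 genes of each list. No column of the table was left out. Promoter windows are from RefSeq (GRCm38.p6), used for letters only and not for read positions. Reads carry no molecular identifiers, so floors cover counting error only.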

Additional observations from a re-analysis of the deposited data

How the results depend on the processing

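Against 1984 genes rising and 2364 falling, library totals gave 2998 and 1494, ribosomal protein genes 4898 and 736, and reference genes 1353 falling. With ribosomal scaling 2280 genes changed by at least 1 log2 unit, 2009 rising and 271 falling, beside 1382, 881 and 501 with TMM. As shares of shared calls, 64.3% of the 4348 TMM calls were called with ribosomal scaling, 77 of them with the opposite sign, and 80.0% with library totals, none with the opposite sign. Of the genes falling under every scaling, 736 became 1350 without the ribosomal scaling and 1984 when TMM, RLE and upper quartile alone were required, by construction of the requirement. DESeq2 called 3735 genes, no low-count filter 4245 and a filter of 1 CPM 4368.

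Leaving out 1 library at a time, with the lone library of a group assumed to vary like the other group, left 3355 to 3713 genes changed, 1313 to 1733 rising and 1980 to 2068 falling, 1101 to 1464 changed by at least 1 log2 unit (619 to 961 rising and 482 to 535 falling), and 1900 to 2264 changed under every scaling, 1276 to 1666 rising and 538 to 629 falling. The lowest counts of rising genes came without cKO replicate 2, and the cause was not tested. With a replicate block 4285 genes changed (1897 rising and 2388 falling) and 2652 under every scaling, and no gene named in the text lost its call.

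Of 188 genes followed through every alternative, 181 kept direction and call. The exceptions are Zc3h13, Rbm15b, Gli1, Tgfb2 and Cyp26a1, described above, and Mki67 and Top2a, which turned to 0.056 and 0.026 with ribosomal scaling and lost their call with reference genes. With 2 libraries a group and these totals, changes near 0.5 log2 units were often missed in simulated data.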
